A study of Caenorhabditis elegans with 18 samples.

Results

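The comparison described here is that between whole first-stage (L1) larvae of Caenorhabditis elegans that lack RAGA-1 and wild-type larvae, both after 4 h of food. It rests on 6 of the 18 RNA sequencing libraries of the study, 3 of fed raga-1 larvae and 3 of fed N2 larvae, chosen by their column names in the deposited gene table. The raga-1 larvae carried the deletion allele ok386. The N2 larvae were wild type, and the labels give N2 as the line of every sample. Both genotypes were grown on OP50 bacteria, hatched without food in M9 buffer after bleaching so that they arrested, and were then placed on OP50 plates. The other 12 libraries were of fed rsks-1 larvae, which carried the deletion allele ok1255 in the S6 kinase gene, and of starved larvae of the 3 genotypes, 3 libraries per group. The labels give whole animals as the material of each library, and nothing in the labels says that replicates came from separate cultures. The p-values therefore measure the spread between these libraries, which may be technical.

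Rag GTPases sit on the lysosome as a pair, RAGA-1 with RAGC-1 in C. elegans, and recruit the kinase complex TORC1 there when amino acids are plentiful. Active TORC1 promotes ribosome production, translation and growth and holds autophagy down, in part through the S6 kinase RSKS-1. An L1 larva that hatches without food stops developing, and food starts cell division, growth and the program that leads to the first molt. Because whole animals were sequenced, a lower level of a gene cannot be told apart from fewer cells that express it.

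The fed raga-1 libraries held 13446155 to 14508882 expected counts and the fed N2 libraries 9929323 to 11246940. Levels are given in CPM, counts scaled to the library size with TMM factors, which assume that most genes do not differ. Differences are log2 values, fed raga-1 minus fed N2, with a standard error (SE). They were tested with edgeR's quasi-likelihood test over 14073 genes, with Benjamini-Hochberg adjustment and a threshold of 0.05. Of the counts, 16.03% to 16.75% fell on cytosolic ribosomal protein genes in fed raga-1 and 20.44% to 20.99% in fed N2.

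Transcripts of raga-1, on chromosome II, were not detected in the mutant. The gene had 0 counts in each of the 3 fed raga-1 libraries, against 619, 567 and 530 counts in the fed N2 libraries. Its level was thus at least 955-fold lower in fed raga-1, with 3 counts over the group taken as the floor. The starved raga-1 libraries also had 0 counts of it.

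After 4 h of food the genotypes differed at most of the genes tested. Of 14073 genes tested, 8911 (63.3%) passed the test, 4070 (28.9%) higher and 4841 (34.4%) lower in fed raga-1 than in fed N2. A difference of at least 2-fold was found for 1299 genes that were higher (9.23%) and 739 that were lower (5.25%). At least 4-fold, the counts were 503 higher (3.57%) and 115 lower (0.817%). With so large a share of genes called, a gene list is read below against these percentages and against the median over all genes tested, 0.01. The direction of small differences depended on the scaling. With TMM factors 45.7% of the called genes were higher in fed raga-1, whereas with library totals alone 71.2% were, 6614 higher and 2671 lower, and the median over all genes was 0.33. Lists whose median turned round under library totals are named as such.

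No other tested gene of the TORC1 list differed by 2-fold or more. Of the 21 members tested, 2 were higher and 10 lower, raga-1 among them, with a median of -0.15 that became 0.17 under library totals. The TOR kinase gene let-363 had 155, 143 and 150.5 CPM in the fed raga-1 libraries, against 153, 154 and 166 CPM in the fed N2 libraries, and its difference did not pass the test (-0.076 ± 0.045, adjusted p 0.13). The Raptor gene daf-15 had 133, 126 and 134 CPM in the fed raga-1 libraries, against 142, 142 and 151 CPM in the fed N2 libraries (log2 difference -0.15 ± 0.042, adjusted p 0.0017). The groups overlapped for let-363, and for daf-15 they did not overlap but lay close together.

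The partner GTPase gene ragc-1 was lower in all 3 fed raga-1 libraries, with 59.8, 57.6 and 59.6 CPM in the fed raga-1 libraries, against 92.8, 91.9 and 87.4 CPM in the fed N2 libraries (log2 difference -0.62 ± 0.055, adjusted p 9.6e-20). Among the Ragulator subunits that anchor the Rag GTPases, lmtr-2 (-0.38), lmtr-3 (-0.25) and lmtr-5 (-0.51) were all lower. The folliculin partner gene fnip-2 was the member with the largest increase. It had 61.6, 56.9 and 61.7 CPM in the fed raga-1 libraries, against 29.5, 30.3 and 34.5 CPM in the fed N2 libraries (log2 difference 0.94 ± 0.064, adjusted p 1.2e-27), with no overlap between the groups. Its complex partner flcn-1 had a log2 difference of 0.024 (adjusted p 0.64). For the GATOR1 subunits, which turn RagA off in mammals, nprl-2 was lower, with 15.6 ± 0.207 CPM in fed raga-1 and 27.1 ± 2.7 CPM in fed N2 (SD, n = 3 each, log2 difference -0.8), and nprl-3 had -0.17 (adjusted p 0.16). The S6 kinase gene rsks-1 had 165 ± 6.64 CPM in fed raga-1 and 171 ± 9.24 CPM in fed N2 (SD, n = 3 each), a difference that did not pass the test (adjusted p 0.34). Of the remaining members, ife-2 for a cap-binding protein (-0.68), the amino acid sensing kinase gene gcn-2 (-0.32) and the sestrin gene sesn-1 (-0.15) were lower, and the transcription factor gene atf-4 was higher (0.2). The 5 others, mlst-8, rheb-1, rict-1, sinh-1 and sgk-1, had log2 differences between -0.24 and 0.096 and did not pass the test. Under library totals the differences of daf-15, lmtr-3, sesn-1 and gcn-2 turned positive, between 4.9e-05 and 0.18. Of these, daf-15 (0.18, adjusted p 0.00021) and sesn-1 (0.17, adjusted p 0.00094) then passed as higher in fed raga-1. The difference of lmtr-2 no longer passed (-0.062, adjusted p 0.47). A further 7 that had not passed did, as higher in fed raga-1: rsks-1 (0.27), let-363 (0.25), flcn-1 (0.345), mlst-8 (0.28), rheb-1 (0.42), rict-1 (0.18) and sgk-1 (0.34). When only the 6 fed libraries were fitted, daf-15 (-0.078, adjusted p 0.096) and sesn-1 (-0.0845, adjusted p 0.115) did not pass. Without fed N2 replicate 1 lmtr-3 had -0.19 (adjusted p 0.058), and without fed raga-1 replicate 2 sesn-1 had -0.11 (adjusted p 0.051). The gene rict-1 passed as lower without fed N2 replicate 1 (-0.202, adjusted p 0.025) and without fed raga-1 replicate 1 (-0.19, adjusted p 0.03).

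The 12 genes named for the lowest values in fed raga-1, raga-1 itself among them, were of several kinds. The astacin metalloprotease gene nas-3 had 0.701, 0.135 and 0.45 CPM in the fed raga-1 libraries, against 27.2, 28.1 and 28.5 CPM in the fed N2 libraries, 64.2-fold lower (log2 difference -6.0 ± 0.22, adjusted p 2.5e-52). The cuticle collagen gene col-149 had 1.19, 1.21 and 1.16 CPM in the fed raga-1 libraries, against 38.8, 38.9 and 37.2 CPM in the fed N2 libraries (log2 difference -5.0 ± 0.16, adjusted p 4.3e-57). For both genes every fed raga-1 library lay far below every fed N2 library.

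Some of the genes named as lower are needed for the molt or for the matrix renewed at it. The nuclear hormone receptor gene nhr-23, an ROR-type regulator of molting, had 5.05, 5.39 and 6.18 CPM in the fed raga-1 libraries, against 38.7, 34.4 and 35.7 CPM in the fed N2 libraries (log2 difference -2.71 ± 0.11, adjusted p 6.0e-46). The period-related gene lin-42, which times molts and larval fates, had 1.82, 1.62 and 1.8 CPM in the fed raga-1 libraries, against 12.5, 14.3 and 13.7 CPM in the fed N2 libraries (log2 difference -2.94 ± 0.19, adjusted p 2.5e-29). The fibrillin-related gene fbn-1 had 1.54, 1.75 and 1.29 CPM in the fed raga-1 libraries, against 12.289, 13.4 and 13.4 CPM in the fed N2 libraries (log2 difference -3.09 ± 0.19, adjusted p 1.3e-31). None of these groups overlapped, and each gene was at least 6-fold lower in fed raga-1. The ACE-like gene acn-1, required for molting, was 10.3-fold lower, with 1.4 ± 0.408 CPM in fed raga-1 and 14.4 ± 1.74 CPM in fed N2 (SD, n = 3 each). The gene sym-1, for a secreted leucine-rich repeat protein, was lower by a log2 difference of -3.61, and lon-1, which limits body length downstream of TGF-beta signalling, was 8.75-fold lower, with 11.1 ± 1.85 CPM in fed raga-1 and 96.9 ± 1.84 CPM in fed N2 (SD, n = 3 each). The whole list of molting and apical matrix genes was mixed. Of 64 tested, 14 were higher and 28 lower, with a median of -0.11 (-0.22 with genes at 0 counts in a group set at their bound) that became 0.21 under library totals. The other genes named for the lowest values were pud-3, found raised in daf-2 mutants (-3.99), the glucuronosyltransferase gene ugt-57 (-3.48), the alpha-glucosidase-related gene aagr-4 (-2.87) and the cell cycle phosphatase gene cdc-25.2 (-2.81). Among 29 genes of developmental timing and L1 exit, 7 were higher and 14 lower, with a median of -0.12 that became 0.21 under library totals.

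**Figure D1:**
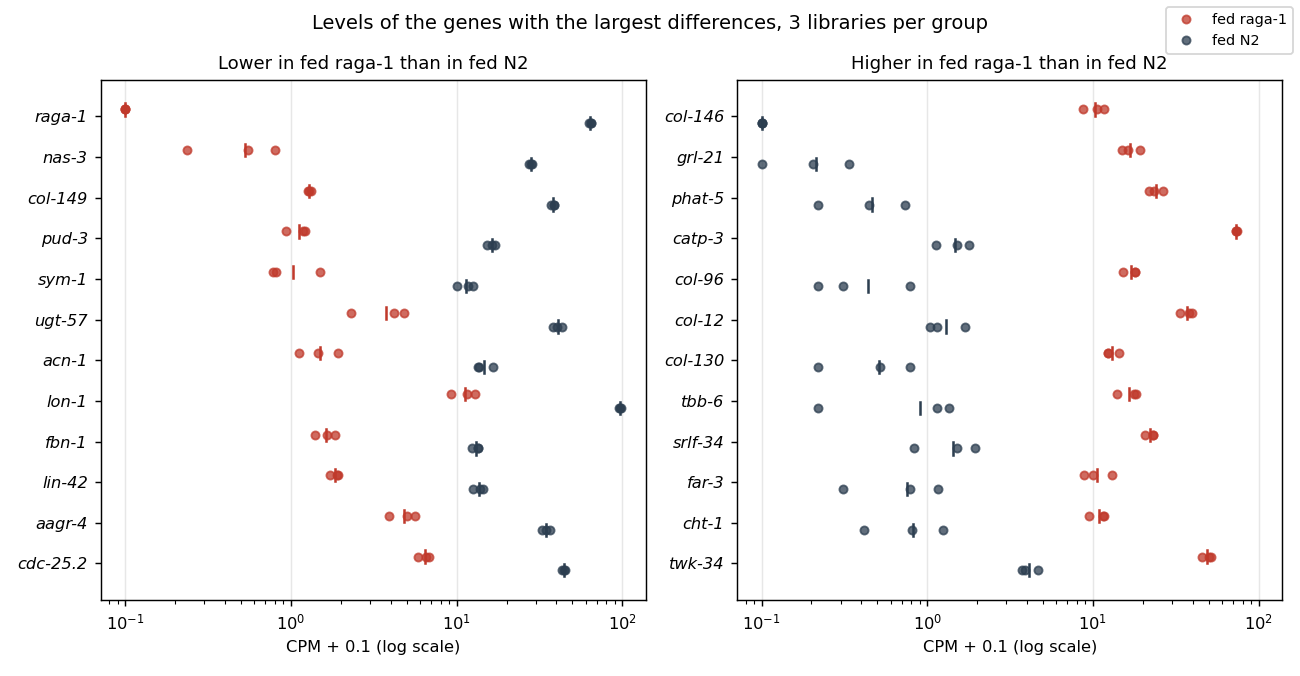
Levels of the 12 genes with the lowest and the 12 with the highest log2 difference, as CPM plus 0.1 on a log axis, with a point for each of the 3 fed raga-1 and the 3 fed N2 libraries and a bar at the mean. The points of both genotypes stay apart for every gene drawn, as the rule for naming them required.

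The genes that were highest in fed raga-1 coded for cuticle collagens, a pharyngeal gland protein and membrane transport proteins, among others. The collagen gene col-146 had 8.56, 11.6 and 10.4 CPM in the fed raga-1 libraries, against 0, 0 and 0 CPM in the fed N2 libraries, at least 91.1-fold higher. The hedgehog-related gene grl-21 had 16.198, 19.1 and 14.8 CPM in the fed raga-1 libraries, against 0.105, 0 and 0.236 CPM in the fed N2 libraries, a ratio of 148.6 (95% counting interval 50.7 to 722). Its fitted log2 difference was 7.1, and 8.02 without fed N2 replicate 3. The P-type ATPase gene catp-3 had 74.5, 72.8 and 73 CPM in the fed raga-1 libraries, against 1.68, 1.03 and 1.41 CPM in the fed N2 libraries (log2 difference 5.72 ± 0.12, adjusted p 1.6e-78). In fed N2 larvae all 3 of these genes stood under 2 CPM, and no fed raga-1 library overlapped with them. The gene phat-5, for a toxin-related protein of the pharyngeal gland, had 21.6, 26.5 and 23.3 CPM in the fed raga-1 libraries, against 0.63, 0.343 and 0.118 CPM in the fed N2 libraries (log2 difference 5.96 ± 0.23, adjusted p 5.6e-49, or 6.62 without fed N2 replicate 1). The potassium channel gene twk-34 had 50.3, 51.2 and 45.4 CPM in the fed raga-1 libraries, against 3.78, 4.57 and 3.65 CPM in the fed N2 libraries (log2 difference 3.61 ± 0.12, adjusted p 1.1e-57). Further collagen genes among the 12 highest were col-96 (5.61, or 6.59 without fed N2 replicate 2, since fed N2 held only 2, 6 and 1 counts of it), col-12 (4.95) and col-130 (4.94). The others were the beta-tubulin gene tbb-6 (4.31), the fatty acid and retinol-binding protein gene far-3 (4.03), the chitinase gene cht-1 (3.9) and srlf-34 (4.07).

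Nearly the whole machinery of translation was lower in fed raga-1. Of 80 cytosolic ribosomal protein genes 77 were lower and 1 higher, with a median of -0.65. Of 66 mitochondrial ribosomal protein genes 64 were lower and 1 higher, with a median of -0.64. All 19 cytosolic aminoacyl-tRNA synthetase genes, which charge tRNAs, were lower (median -0.88). Among 46 translation factor genes 42 were lower and none was higher (median -0.73), and among 61 ribosome biogenesis genes 58 were lower and 2 higher (median -0.56). Under library totals these 5 medians stayed below 0, between -0.56 and -0.23.

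The small-subunit protein gene rps-2 had 2434, 2409 and 2239.8 CPM in the fed raga-1 libraries, against 4396, 4324 and 4239.7 CPM in the fed N2 libraries (log2 difference -0.87 ± 0.027, adjusted p 6.4e-58). The acidic stalk protein gene rla-1 had 2774, 2805 and 2706 CPM in the fed raga-1 libraries, against 4857, 5132 and 4687 CPM in the fed N2 libraries (log2 difference -0.82 ± 0.026, adjusted p 1.4e-58). Both were lower in every fed raga-1 library than in any fed N2 library, by less than 2-fold. Ribosomal protein genes moved within a narrow band, as the box of their list in the plot of gene lists shows. Fibrillarin, the nucleolar RNA methyltransferase of ribosomal RNA, is coded by fib-1, which had 1236, 1279 and 1223 CPM in the fed raga-1 libraries, against 2344, 2362 and 2345 CPM in the fed N2 libraries (log2 difference -0.92 ± 0.028, adjusted p 4.5e-60). The elongation factor gene eef-1A.2 had 3194, 2995 and 3162 CPM in the fed raga-1 libraries, against 6883, 7172 and 6859 CPM in the fed N2 libraries (log2 difference -1.16 ± 0.026, adjusted p 1.8e-75). For the tryptophanyl-tRNA synthetase gene wars-1 the levels were 104.06, 97 and 102 CPM in the fed raga-1 libraries, against 220.0, 212 and 229 CPM in the fed N2 libraries (log2 difference -1.13 ± 0.045, adjusted p 1.5e-48). The groups stayed apart for all 3. The threonyl synthetase gene tars-1 (-0.99), the phenylalanyl synthetase gene fars-1 (-1.01), the eIF3 subunit genes egl-45 (-1.0) and eif-3.K (-1.0) and the mitochondrial ribosomal protein genes mrps-28 (-1.01) and mrpl-12 (-0.92) were lower to a like degree. The largest change in the ribosome biogenesis list was that of ebp-2 (-1.37), which codes for an EB1-type microtubule end-binding protein and not for a ribosome factor.

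**Figure D2:**
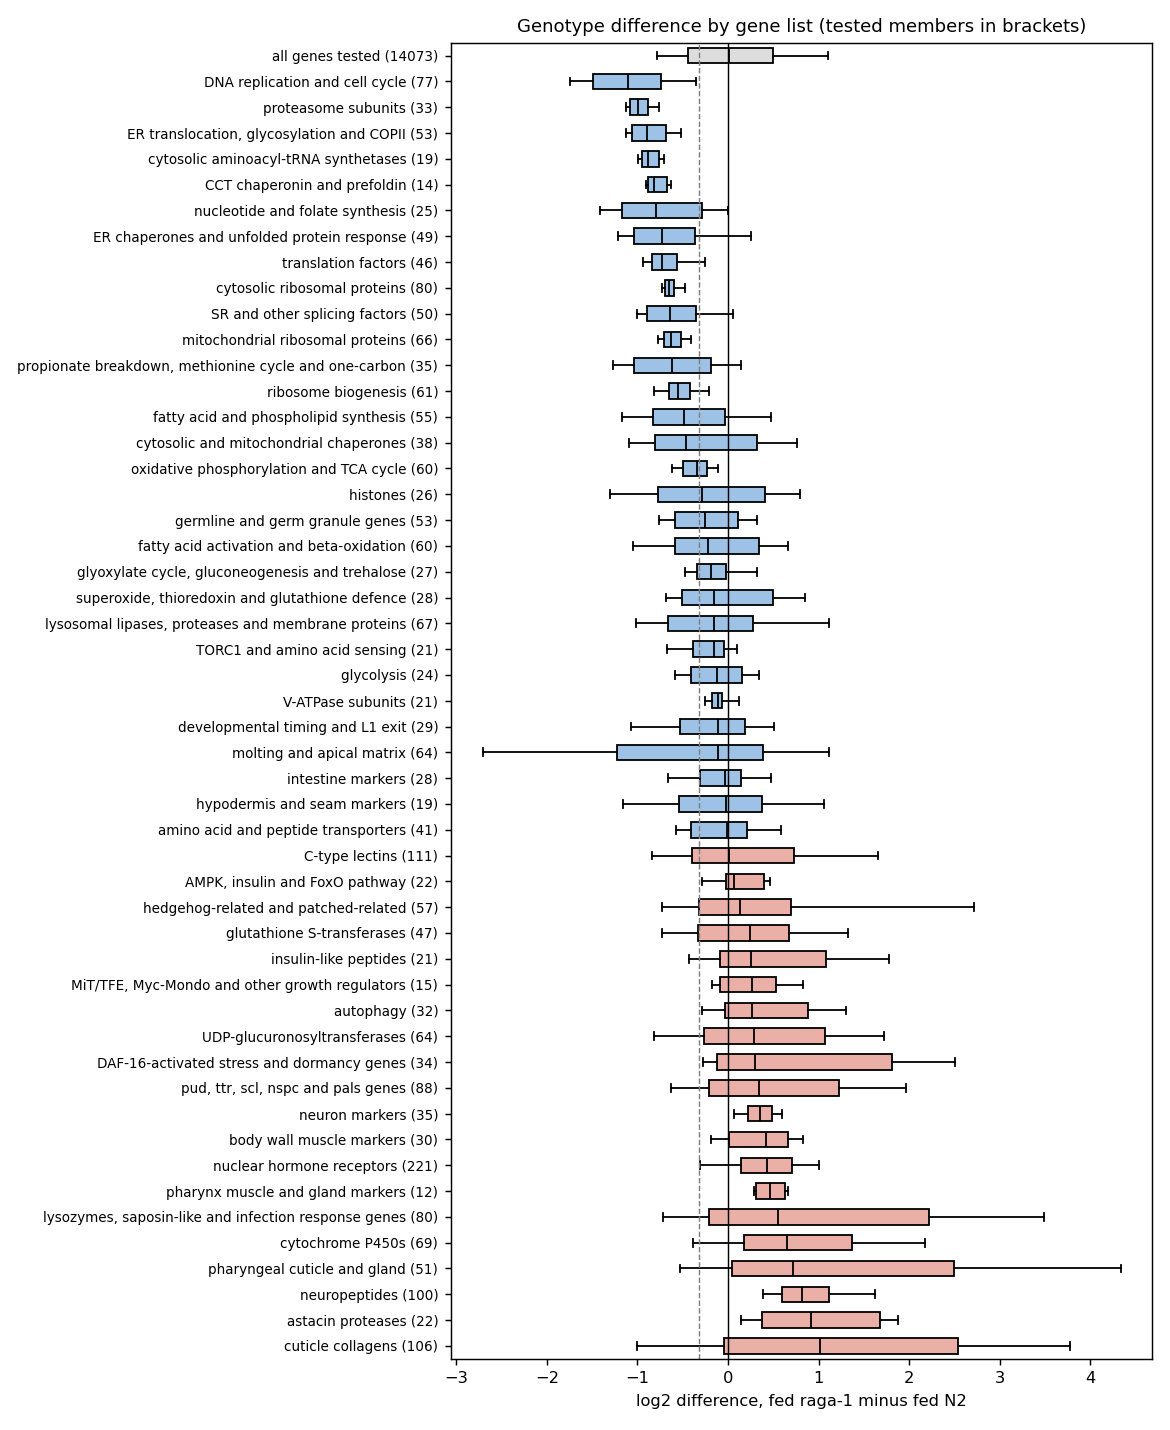
Log2 differences, fed raga-1 minus fed N2, over the tested members of each gene list, with boxes from the first to the third quartile, a line at the median and whiskers to the 10th and 90th percentiles. Blue boxes have a median below 0 and red boxes one above 0, and the dashed line marks where 0 would lie under library totals, 0.32 below the TMM zero. Replication, proteasome and secretory genes lie lowest, and astacins and collagens highest.

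Genes for protein folding, secretion and breakdown were lower together. All but 1 of 33 proteasome subunit genes were lower, with a median of -0.99. The core particle gene pas-5 had 65.8, 59.4 and 61.7 CPM in the fed raga-1 libraries, against 170.5, 167 and 162 CPM in the fed N2 libraries (log2 difference -1.42 ± 0.051, adjusted p 5.8e-53). The deubiquitinase subunit gene rpn-11 had 50.9, 55.6 and 53.7 CPM in the fed raga-1 libraries, against 124, 126 and 129.45 CPM in the fed N2 libraries (log2 difference -1.25 ± 0.054, adjusted p 5.1e-45). These genes were more than 2-fold lower in every fed raga-1 library than in the fed N2 mean. Of 53 genes of endoplasmic reticulum (ER) translocation, glycosylation and COPII transport, 49 were lower and 2 higher (median -0.9), such as the signal peptidase genes spcs-2 (-1.24) and spcs-3 (-1.27). Among 49 ER chaperone and unfolded protein response genes 39 were lower and 5 higher (median -0.73). The 2 genes of this list called at least 2-fold higher had log2 differences of 3.61 and 3.55, with at most 1 count in any fed N2 library.

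The prolyl isomerase gene fkb-5 had the largest decrease of the ER list, with 11.1, 11.4 and 11.1 CPM in the fed raga-1 libraries, against 77.2, 73.8 and 69 CPM in the fed N2 libraries (log2 difference -2.71 ± 0.091, adjusted p 3.7e-56). The following ER genes were named after their values had been seen. They were the disulfide isomerase gene pdi-2, with 731 ± 22.8 CPM in fed raga-1 and 1647 ± 29.3 CPM in fed N2 (SD, n = 3 each, log2 difference -1.17), and hsp-4, a BiP gene that responds to ER stress, with 52.4 ± 2.64 CPM in fed raga-1 and 55.7 ± 3.11 CPM in fed N2 (SD, n = 3 each, log2 difference -0.09, adjusted p 0.19). All 14 genes of the CCT chaperonin, which folds actin and tubulin, and of prefoldin were lower (median -0.82), among them cct-6 (-0.98) and cct-8 (-0.92). The list of other cytosolic and mitochondrial chaperones held 23 lower and 6 higher genes of 38 (median -0.47). Its 2 genes called at least 2-fold higher had log2 differences of 3.81 and 2.83, with at most 2 counts in any fed N2 library. The FKBP co-chaperone gene fkb-6 had 77.6, 83 and 82.8 CPM in the fed raga-1 libraries, against 239.7, 219 and 212 CPM in the fed N2 libraries (log2 difference -1.46 ± 0.047, adjusted p 4.0e-58). Medians of all these lists stayed below 0 under library totals, between -0.67 and -0.15.

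Genes of cell division made up the list with the lowest median. Of 77 DNA replication and cell cycle genes 70 were lower and 1 higher, with a median of -1.1 (-0.78 under library totals). The CDC25 phosphatase gene cdc-25.2 had 6.45, 6.73 and 5.73 CPM in the fed raga-1 libraries, against 43.1, 44.6 and 44.9 CPM in the fed N2 libraries (log2 difference -2.81 ± 0.11, adjusted p 5.1e-51). The cyclin B gene cyb-3 had 13, 13.8 and 13.5 CPM in the fed raga-1 libraries, against 51.5, 52.5 and 55.5 CPM in the fed N2 libraries (log2 difference -1.98 ± 0.086, adjusted p 4.5e-45). The anaphase activator gene fzy-1, a CDC20 homolog, had 9.19 ± 0.344 CPM in fed raga-1 and 34.4 ± 1.55 CPM in fed N2 (SD, n = 3 each, log2 difference -1.9). Every one of these stood at least 3-fold lower in fed raga-1.

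Nucleotide and folate synthesis went the same way, with 20 of 25 genes lower and 3 higher (median -0.8). The ribonucleotide reductase gene rnr-2 had 32.6, 33.9 and 33.3 CPM in the fed raga-1 libraries, against 95.1, 97 and 91.6 CPM in the fed N2 libraries (log2 difference -1.51 ± 0.06, adjusted p 1.6e-48), and the thymidylate synthase gene tyms-1 was 3.02-fold lower. Of 50 splicing factor genes 40 were lower and 4 higher (median -0.64), such as the Sm protein gene snr-2 (-1.1) and mog-2 (-1.19). The linker histone genes his-24, with 202, 210.3 and 206 CPM in the fed raga-1 libraries, against 573, 599.9 and 575 CPM in the fed N2 libraries (log2 difference -1.5 ± 0.032, adjusted p 5.7e-77), and hil-2 (-1.59) were lower. The histone list as a whole had 12 lower and 4 higher of 26 genes, many of them near-identical copies whose reads can be split between them, and its median of -0.28 became 0.039 under library totals. Germline and germ granule genes had 25 lower and 4 higher of 53 (median -0.25, 0.069 under library totals), and the histone methyltransferase gene mes-4 had the largest decrease (-1.16).

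Metabolic genes split by pathway. Oxidative phosphorylation and the TCA cycle had 52 of 60 genes lower and none higher, although the median was only -0.35 and -0.026, with 25 lower and 15 higher, under library totals. Propionate breakdown, the methionine cycle and one-carbon genes had 28 lower and 5 higher of 35 (median -0.62). The acyl-CoA dehydrogenase gene acdh-1, of the propionate shunt, had 71.5, 73.1 and 71.2 CPM in the fed raga-1 libraries, against 265, 259 and 265 CPM in the fed N2 libraries (log2 difference -1.87 ± 0.046, adjusted p 1.7e-70). The nuclear receptor gene nhr-68, which regulates that shunt, was 3.64-fold lower, and the methylenetetrahydrofolate reductase gene mthf-1 had 110.4 ± 2.09 CPM in fed raga-1 and 299.7 ± 8.26 CPM in fed N2 (SD, n = 3 each, log2 difference -1.44).

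Lipid synthesis genes were mostly lower, 39 lower and 11 higher of 55 (median -0.49), but the delta-9 desaturase genes fat-7 and fat-5 parted. The desaturase gene fat-7 had 2.88, 2.63 and 3.54 CPM in the fed raga-1 libraries, against 13.1, 15.3 and 13 CPM in the fed N2 libraries (log2 difference -2.19 ± 0.19, adjusted p 7.0e-21). Its relative fat-5 had 24.9, 24.9 and 30.2 CPM in the fed raga-1 libraries, against 4.52, 9.03 and 7.89 CPM in the fed N2 libraries (log2 difference 1.92 ± 0.12, adjusted p 9.4e-28). The groups did not overlap for either, and the directions were opposite. The reductase gene let-767, of fatty acid elongation, was 3.25-fold lower. In fatty acid activation and beta-oxidation 33 of 60 genes were lower and 13 higher (median -0.22, 0.1 under library totals), and the enoyl-CoA hydratase-family genes ech-7 (-2.42) and ech-9 (2.5) moved in opposite directions. Glycolysis and pyruvate dehydrogenase had 12 lower and 6 higher of 24 (median -0.12, 0.2 under library totals), with the pyruvate dehydrogenase subunit gene pdhb-1 lowest (-1.04). In the glyoxylate, gluconeogenesis and trehalose list 17 were lower and 5 higher of 27 (median -0.19, 0.13 under library totals). There the glycerol-3-phosphate dehydrogenase gene gpdh-1 was higher (1.59) and the cytosolic aconitase gene aco-1 lower (-1.15).

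Autophagy genes were more often higher. Of 32 tested, 17 were higher and 6 lower, with a median of 0.27 (0.59 under library totals). The LC3 homolog gene lgg-2 had 138, 139 and 136 CPM in the fed raga-1 libraries, against 30.4, 31.2 and 31.4 CPM in the fed N2 libraries (log2 difference 2.15 ± 0.048, adjusted p 1.3e-75). The gene epg-9, an ATG101 homolog of the kinase complex that starts autophagy, had 42.5, 40.3 and 40.5 CPM in the fed raga-1 libraries, against 12.604, 15.4 and 12 CPM in the fed N2 libraries (log2 difference 1.62 ± 0.083, adjusted p 2.3e-38). The allophagy receptor gene allo-1 had 91.2 ± 3.21 CPM in fed raga-1 and 35 ± 0.976 CPM in fed N2 (SD, n = 3 each, log2 difference 1.38). All 3 were more than 2-fold higher in fed raga-1. Lysosomal genes were mixed, 34 lower and 17 higher of 67 (median -0.15, 0.17 under library totals). The cathepsin B-like gene cpr-2 had 37.4, 33.9 and 30.7 CPM in the fed raga-1 libraries, against 3.89, 2.4 and 3.53 CPM in the fed N2 libraries (log2 difference 3.37 ± 0.14, adjusted p 6.0e-45), whereas the lysosomal lipase gene lipl-5 had 23.8, 26.7 and 26.4 CPM in the fed raga-1 libraries, against 102, 98.8 and 93.5 CPM in the fed N2 libraries (log2 difference -1.94 ± 0.063, adjusted p 1.1e-57). Another lipase gene of the lipl family went the other way on few counts, 14, 18 and 18 in fed raga-1 against 1, 2 and 3 in fed N2 (log2 difference 2.27 ± 0.48, adjusted p 1.8e-05). Subunits of the V-ATPase, the lysosomal proton pump, had 13 lower and 3 higher of 21, with a median of -0.12 that became 0.21 under library totals, where 17 were higher and 0 lower. When only the 6 fed libraries of both genotypes were fitted, 7 V-ATPase genes were lower.

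Regulators of growth and fasting differed too. In the list of MiT/TFE, Myc-Mondo and other growth regulators 10 of 15 genes were higher and 2 lower (median 0.26). The Max-like gene mxl-3, a repressor of lysosomal lipase genes, had 85.7, 86.3 and 82.8 CPM in the fed raga-1 libraries, against 20.5, 17.8 and 16.491 CPM in the fed N2 libraries (log2 difference 2.21 ± 0.062, adjusted p 2.4e-64). The Mad homolog gene mdl-1 had 297, 298 and 290.1 CPM in the fed raga-1 libraries, against 96.4, 100.4 and 90.5 CPM in the fed N2 libraries (log2 difference 1.62 ± 0.038, adjusted p 3.9e-73), and the retinoblastoma homolog gene lin-35 was lower (-0.95). Of 22 AMPK, insulin and FoxO pathway genes 9 were higher and 5 lower (median 0.064), and under library totals 16 were higher. The insulin receptor gene daf-2 had 113.6, 104.03 and 117 CPM in the fed raga-1 libraries, against 66.3, 60.7 and 66.8 CPM in the fed N2 libraries (log2 difference 0.79 ± 0.049, adjusted p 1.3e-29), and the zinc finger gene pqm-1 was higher (0.64). Among 34 genes known to be activated by DAF-16, the FoxO factor, 16 were higher and 8 lower (median 0.3). The long noncoding RNA gene tts-1 had 220.2, 232 and 195 CPM in the fed raga-1 libraries, against 29.1, 22.9 and 28.3 CPM in the fed N2 libraries (log2 difference 3.01 ± 0.1, adjusted p 5.5e-12), and the ferritin gene ftn-1 was 7.75-fold higher.

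Detoxification and immune lists had medians above that of all genes tested, apart from those of superoxide and thioredoxin defence and of C-type lectins. Cytochrome P450 genes had 37 higher and 6 lower of 69 (median 0.65), and UDP-glucuronosyltransferase genes 31 higher and 18 lower of 64 (median 0.29). Glutathione S-transferase genes had 16 higher and 14 lower of 47 (median 0.24), and under library totals 25 were higher. Superoxide, thioredoxin and glutathione defence genes had 7 higher and 15 lower of 28, with a median of -0.16 that became 0.16 under library totals. The glutathione peroxidase gene gpx-3 had 99, 97.1 and 94.4 CPM in the fed raga-1 libraries, against 23.9, 23.7 and 21.1 CPM in the fed N2 libraries (log2 difference 2.08 ± 0.076, adjusted p 1.7e-52). The P450 gene cyp-37B1, with 67 counts over the fed raga-1 libraries and 2 over the fed N2 libraries, had a ratio of 20.1 (95% counting interval 5.34 to 169). Among lysozyme, saposin-like and infection response genes 44 were higher and 19 lower of 80 (median 0.55), with dod-21 lower. That gene had 3, 7 and 0 counts in the fed raga-1 libraries, against 58, 67 and 96 counts in the fed N2 libraries (log2 difference -5.16 ± 0.43, adjusted p 3.0e-18), and the difference was -6.24 without fed raga-1 replicate 2 and -4.56 without fed raga-1 replicate 3. C-type lectin genes were balanced, 31 higher and 32 lower of 111 (median 0.005), or 44 higher and 17 lower under library totals, with clec-47 at 9.05, 9.9 and 8.88 CPM in the fed raga-1 libraries, against 0.315, 0.229 and 0.118 CPM in the fed N2 libraries (log2 difference 5.31 ± 0.33, adjusted p 1.4e-30). The list of pud, ttr, scl, nspc and pals genes, whose functions are largely unknown, had 39 higher and 14 lower of 88 (median 0.34), with ttr-15 7.8-fold higher.

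Lists of the body surface and pharynx lining differed in direction, and the molting and apical matrix list above held more lower than higher genes. Of 106 cuticle collagen genes 59 were higher and 14 lower, with a median of 1.01. The collagen genes col-12, with 37.9, 33.7 and 39.8 CPM in the fed raga-1 libraries, against 1.05, 1.6 and 0.942 CPM in the fed N2 libraries (log2 difference 4.95 ± 0.17, adjusted p 1.5e-47), and col-149 above show that members ran in both directions. Collagen genes are a large family with similar sequences, so reads can be shared among them. Pharyngeal cuticle and gland genes had 23 higher and 7 lower of 51 (median 0.71, 0.62 with genes at 0 counts in fed N2 set at their bound), and 15 were higher when only the 6 fed libraries were fitted. Astacin protease genes had 14 higher and 2 lower of 22 (median 0.91), with nas-3 among the few that were lower. Hedgehog-related and patched-related genes had 19 higher and 12 lower of 57 (median 0.13).

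Neuropeptide genes were higher almost without exception. Of 100 tested, 91 were higher and 1 lower, with a median of 0.82. The antimicrobial-type neuropeptide gene nlp-31 had 17, 23.2 and 14.1 CPM in the fed raga-1 libraries, against 2.52, 3.89 and 2 CPM in the fed N2 libraries (log2 difference 2.68 ± 0.22, adjusted p 2.5e-10), and nlp-34 was 8.12-fold higher. The FMRFamide-like peptide gene flp-14, named after its values had been seen, had 180.4, 173 and 183 CPM in the fed raga-1 libraries, against 101, 94.9 and 96.6 CPM in the fed N2 libraries (log2 difference 0.87 ± 0.04, adjusted p 3.1e-42). Insulin-like peptide genes had 10 higher and 3 lower of 21 (median 0.25), with ins-10 3.42-fold higher.

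Markers of tissues moved with the genotype as well. Neuron markers had 25 higher and 1 lower of 35 (median 0.35), and summed to 5628 to 5737 CPM in fed raga-1 and 4196 to 4279 CPM in fed N2. The GABA synthesis gene unc-25 had 115, 124 and 118 CPM in the fed raga-1 libraries, against 61.4, 66.4 and 61.7 CPM in the fed N2 libraries (log2 difference 0.91 ± 0.049, adjusted p 1.3e-36). Body wall muscle markers had 21 higher and 4 lower of 30 (median 0.41), with the troponin gene tni-3 highest (1.19). Pharynx muscle and gland markers had 10 higher and none lower of 12 (median 0.47), the pharyngeal troponin gene tni-4 among them (0.66). Muscle markers summed to 27890 to 28650 CPM in fed raga-1 and 20990 to 21300 CPM in fed N2. Pharynx markers summed to 3103 to 3254 CPM in fed raga-1 and 2363 to 2455 CPM in fed N2, and 1 of 13, phat-1, was at 0 in all 6 libraries. The part of these shifts in the changes of the neuropeptide, collagen and other lists was not tested.

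Intestine markers were divided, 8 higher and 11 lower of 28 (median -0.039, 0.28 under library totals), and summed to 13820 to 14110 CPM in fed raga-1 and 14220 to 14350 CPM in fed N2. The intestinal acid phosphatase gene pho-1 was lower (-0.75). Hypodermis and seam markers had 4 higher and 5 lower of 19 (median -0.021, 0.3 under library totals). They summed to 789 to 821 CPM in fed raga-1 and 845.0 to 884 CPM in fed N2, and germline genes to 1852 to 1928 CPM in fed raga-1 and 2440 to 2508 CPM in fed N2, with 1 of 58, alg-4, at 0. Nuclear hormone receptor genes had 123 higher and 17 lower of 221 (median 0.43), so that nhr-23 and nhr-68 ran against most of their family. Amino acid and peptide transporter genes had 13 higher and 16 lower of 41 (median -0.016, 0.3 under library totals), with slc-36.1 lower (-1.02).

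The fed comparison was set beside the same genotypes before food, which shares no library with it. In starved larvae 7417 of 14073 genes (52.7%) passed the test, 3797 higher (27%) and 3620 lower (25.7%) in raga-1, and under library totals 5038 higher and 2422 lower. Of the genes higher in fed raga-1, 1884 were also higher in starved raga-1, which is 46.3% of the fed and 49.6% of the starved list, while 709 (17.4% of the fed list) were lower there. Of the genes lower in fed raga-1, 1816 were also lower in starved raga-1, 37.5% of the fed and 50.2% of the starved list, and 897 (18.5% of the fed list) were higher. Differences of 2-fold or more were found in starved larvae for 8.74% of genes higher and 4.06% lower in raga-1. At that size the shared higher genes numbered 458 (35.3% of the fed and 37.2% of the starved list) and the shared lower genes 78 (10.6% of the fed and 13.7% of the starved list). The fed genotype difference itself differed from the starved one for 7110 genes (50.5%), with 3063 more positive (21.8%) and 4047 more negative (28.8%) in fed larvae. Under library totals 4512 were more positive and 2803 more negative.

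Proteasome, secretory and cell division genes were lower in raga-1 more often after food than before it. Of the proteasome genes 2 of 33 were lower and 10 higher in starved raga-1, and for 32 the fed difference was more negative than the starved one. The same held for 47 of 53 genes of ER translocation and transport, of which 28 were higher in starved raga-1. For replication and cell cycle genes the number was 61 of 77, with 45 already lower in starved raga-1. Cytosolic ribosomal protein genes were lower in starved raga-1 as well, 79 of 80 (median -0.49). For 55 the fed difference was more negative than the starved one, and the list median of fed minus starved was -0.16. That median is no larger than the shift the TMM factors bring to this comparison, so its direction rests on the scaling.

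Individual genes turned round between the conditions. The nucleolar gene fib-1 had 418, 408 and 422 CPM in starved raga-1, against 204, 210.0 and 219 CPM in starved N2, a log2 difference of 0.98 ± 0.031, adjusted p 1.3e-59, opposite to that in fed larvae (fed minus starved difference -1.89, adjusted p 4.3e-76). The molting gene fbn-1 had 7.25, 4.99 and 6.83 CPM in starved raga-1, against 1.1, 1.55 and 1.32 CPM in starved N2 (log2 difference 2.25 ± 0.21, adjusted p 3.1e-18), and the fed difference was lower than the starved one by 5.34 (adjusted p 7.4e-37). The ER stress gene hsp-4 had 178, 174 and 168 CPM in starved raga-1, against 21.3, 19.7 and 20.5 CPM in starved N2 (log2 difference 3.08 ± 0.061, adjusted p 9.6e-82), although its fed levels were close. For these 3 genes the starved raga-1 libraries lay above all starved N2 libraries. The autophagy gene lgg-2 had 342, 354 and 344 CPM in starved raga-1, against 392.5, 395 and 392.42 CPM in starved N2 (log2 difference -0.18 ± 0.033, adjusted p 6.4e-07). Every starved library was above every fed one, and the fed difference exceeded the starved one by 2.33 (adjusted p 7.2e-70). The neuropeptide list had 37 higher and 29 lower genes in starved raga-1, and 79 of 100 were more positive after food. Collagens were instead higher in starved larvae too, 77 higher and 4 lower (median 1.67), and body wall muscle markers had 28 higher and 0 lower. The collagen gene col-12 had 107, 103 and 104.19 CPM in starved raga-1, against 0.825, 1.55 and 0.587 CPM in starved N2 (log2 difference 6.71 ± 0.14, adjusted p 6.2e-67).

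**Figure D3:**
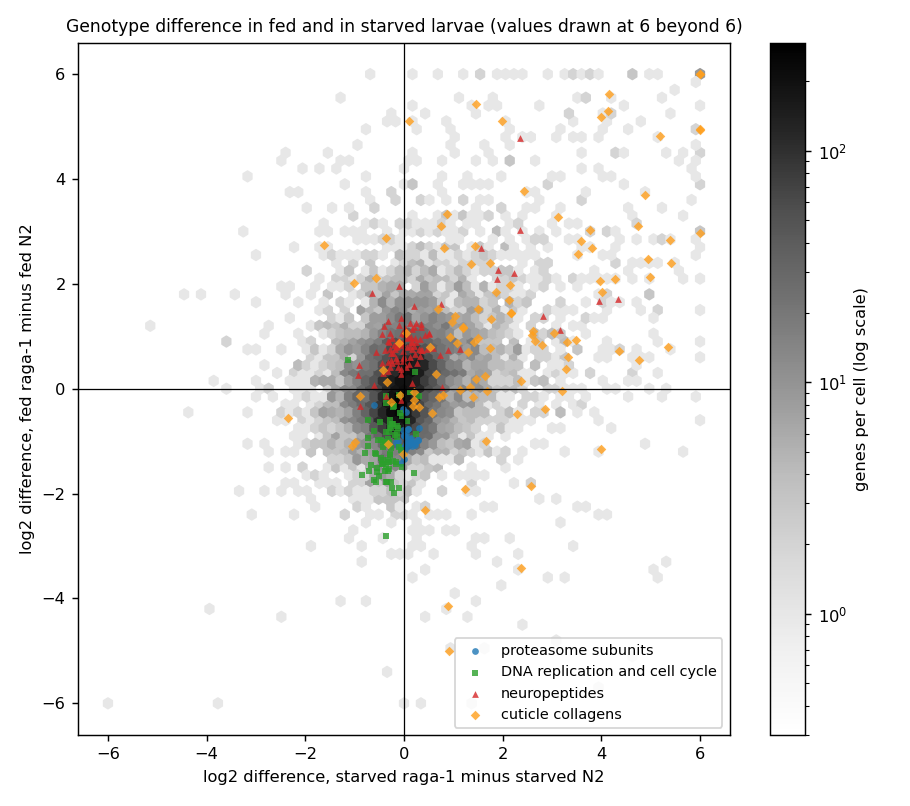
Genotype differences (log2, raga-1 minus N2) in starved larvae on the horizontal axis and in fed larvae on the vertical axis for all 14073 genes, shaded by the number of genes per cell, with 4 gene lists drawn as points. Proteasome and replication genes lie farther below 0 on the fed axis than on the starved one, neuropeptides above 0 when fed, and collagens run high on both axes.

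The S6 kinase mutant gave a second comparison, with the fed mutants set against each other directly, since both differences from N2 use the same N2 libraries. Fed raga-1 and fed rsks-1 differed at 8236 genes (58.5%), 3762 higher (26.7%) and 4474 lower (31.8%) in raga-1, and under library totals 6178 higher and 2624 lower. Replication and cell cycle genes were lower in raga-1 than in rsks-1 for 69 of 77 genes (median -1.12), and proteasome genes for 31 of 33 (median -0.68). Cytosolic ribosomal protein genes were lower in raga-1 for 78 of 80 (median -0.54). Neuropeptide genes instead were split, 29 higher and 20 lower in raga-1 than in rsks-1 (median 0.048), and against the same N2 libraries 90 of 100 were higher in rsks-1, beside 17.4% of all genes. Proteasome genes were also lower in fed rsks-1 than in fed N2, 31 of 33 and none higher (median -0.28), beside 22.6% of all genes. Cytosolic ribosomal protein genes had 46 lower and 2 higher there (median -0.11), and replication and cell cycle genes 18 lower and 7 higher (median -0.046). Autophagy genes were higher in raga-1 than in rsks-1 for 24 of 32 and lower for 3. Against fed N2, 19 of them were lower and 2 higher in fed rsks-1 (median -0.21). The molting receptor gene nhr-23 had 41.8, 39.2 and 42.9 CPM in fed rsks-1, and was lower in raga-1 (log2 difference -2.89 ± 0.11, adjusted p 1.4e-50). The nucleolar gene fib-1, with 1462, 1522 and 1424 CPM in fed rsks-1, was lower in both mutants than in N2. With TMM factors it was also lower in raga-1 than in rsks-1, by 0.24 (adjusted p 3.7e-13). That last value is about as large as the shift the TMM factors bring between the mutants, so its direction rests on the scaling.

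**Figure D4:**
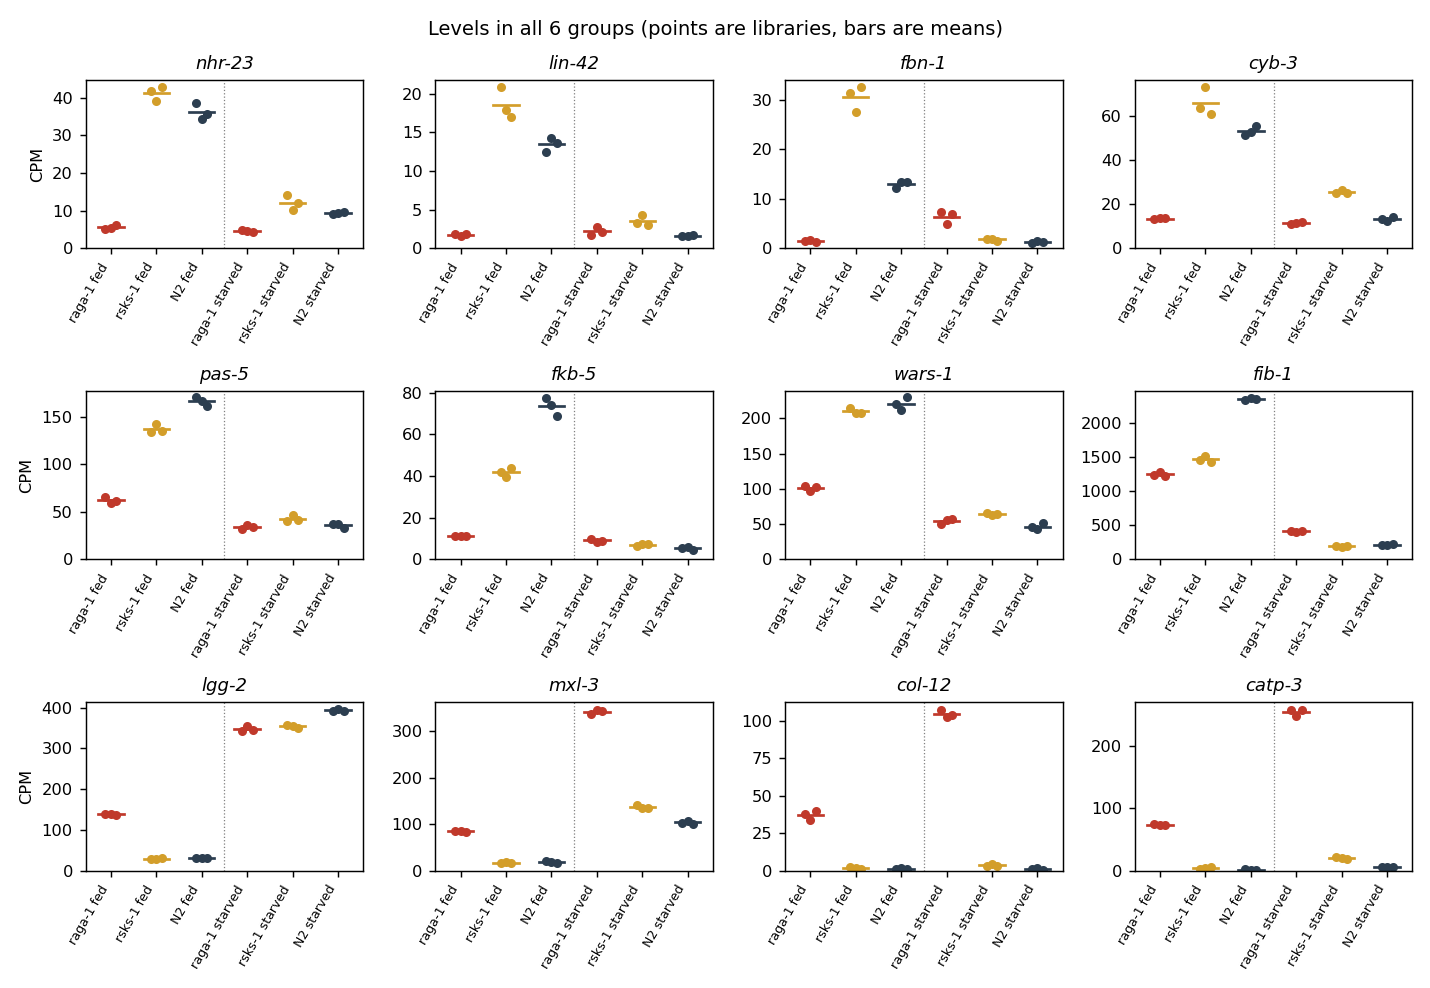
Levels in CPM of 12 genes in fed larvae of raga-1, rsks-1 and N2 and in starved larvae of the same genotypes, with a point for each library and a bar at the mean of 3. Growth and molting genes are low in fed raga-1 against the other fed groups, lgg-2 and mxl-3 are high, and col-12 and catp-3 are high in raga-1 in either condition.

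To see how the fed genotype difference ran along the feeding response, genes were sorted by their change on feeding in rsks-1 larvae, whose libraries enter neither side of the raga-1 and N2 comparison. Of 1823 genes that food raised by 2-fold or more in rsks-1, 1425 (78.2%) were lower in fed raga-1 than in fed N2 and 123 (6.75%) were higher, with a median of -0.69. Of 2224 genes at least 2-fold lower on feeding, 1258 (56.6%) were higher in fed raga-1 and 87 (3.91%) lower, with a median of 0.78. Over all genes tested the shares were 34.4% lower and 28.9% higher. In starved larvae the median genotype difference was 0.16 for the class raised by food and -0.16 for the class lowered by food. Genes that food raised in rsks-1 were thus mostly lower in fed raga-1, and genes that food lowered were mostly higher.

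**Figure D5:**
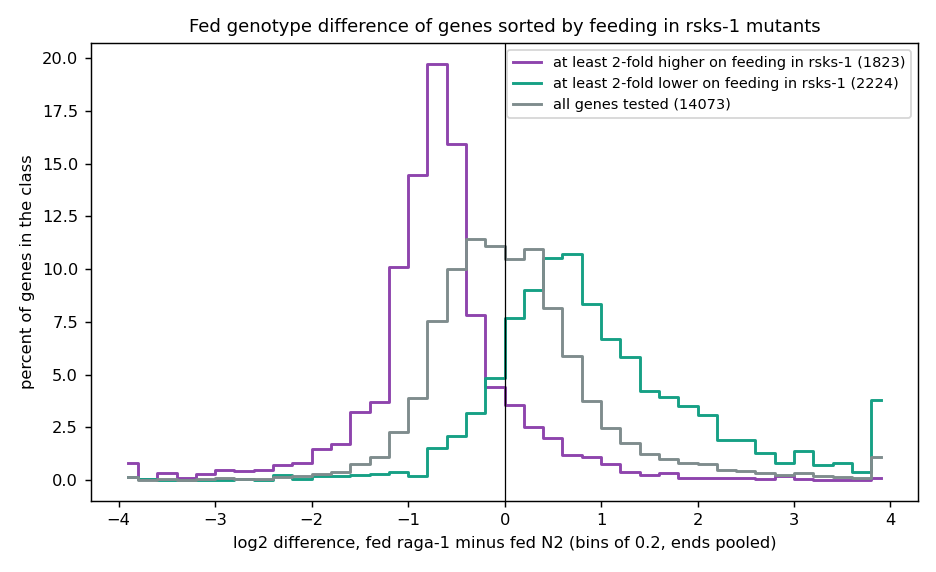
Percent of genes by log2 difference, fed raga-1 minus fed N2, in bins of 0.2, for the 1823 genes that food raised and the 2224 that food lowered by 2-fold or more in rsks-1 larvae and for all 14073 genes. The class raised by food peaks below 0 and the class lowered by food above 0.

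Genes around raga-1 on chromosome II were also read, since the allele is a deletion. Of the 10 genes on each side in annotation order, 16 were tested, with 6 higher and 6 lower, so that 12 of 16 passed, beside 63.3% of all genes. Among them the proteasome gene rpn-9 (-1.34) and samp-1, the next gene after raga-1, for a nuclear membrane protein (-1.31), were lower, and the neuropeptide gene nlp-51 was higher (1.2). In starved larvae rpn-9 had a log2 difference of -0.0046 (adjusted p 0.96) and samp-1 one of -0.77 (adjusted p 1.6e-18), and nlp-51 was lower there (-0.41, adjusted p 5.7e-09). The largest difference among the neighbours was that of T06D8.10, with 12, 22 and 16 counts in the fed raga-1 libraries, against 1, 0 and 0 counts in the fed N2 libraries. Its ratio was 29.96 (95% counting interval 5.14 to 1207), and it was higher in starved raga-1 as well (log2 difference 2.15 ± 0.33, adjusted p 1.2e-08). The other 8 neighbours that passed had log2 differences between -0.63 and 0.55.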

How the data were processed

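RNA of 18 libraries was measured, 3 per group, and the 6 fed raga-1 and fed N2 libraries are compared here. The authors deposited expected counts for genes and for isoforms, with no scaling. Reads were aligned with STAR to a genome named WBcel269 per the labels' protocols, and RSEM and DESeq2 are named in the submitters' processing notes, with no versions. The sources used here do not give the library kit, strandedness or read length, so overlapping and antisense genes cannot be told apart. Counts of near-identical genes are estimates that RSEM shares out.

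Expected counts were rounded to whole numbers (0.962% of values were not whole). Of 46904 genes, 44017 had a symbol in the reference tables, and 14073 passed filterByExpr with a minimum count of 10. One negative binomial model over all 18 libraries (12 residual degrees of freedom, common biological coefficient of variation 0.0416) was fitted with edgeR 4.0.16 and limma 3.58.1 in R 4.3.3, with TMM factors and robust quasi-likelihood tests, and p-values were adjusted by Benjamini-Hochberg over all genes tested. The test was checked on simulated counts with few genes changed, as many up as down. That check does not cover the scaling where most genes differ. DESeq2 1.42.0, other scalings, no filter, isoform sums, thinning, fitting only the libraries of each comparison, and leaving out each replicate were the alternatives. Intervals and floors cover counting error only.

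The genes compared and the 50 gene lists were chosen with earlier results of these data known, so lists are described by counts and medians, with no set test. Named genes were the 12 highest and 12 lowest with a name, at least 10 CPM in a fed group and groups that do not overlap. Up to 3 members per list with large changes were added, and some members with larger changes were left unnamed. Also named were all TORC1 members, called neighbours of raga-1 and genes absent from 1 genotype. No pairing by replicate number was seen among the fed libraries. Coordinates and sequences are not used here.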

Additional observations from a re-analysis of the deposited data

Results flagged for a closer look

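The results below were singled out because the genotype difference in fed larvae, raga-1 minus N2, differed from that in starved larvae in edgeR's interaction test (Benjamini-Hochberg adjusted p below 0.05 over 14073 genes). This held for 96 of the 122 genes named, with 66 more negative and 30 more positive after food. Most of these genes were named for a large difference in fed larvae, which is one side of this test, so their share and the split between directions were largely set by how they were chosen. Each value in brackets is the fed difference minus the starved difference on the log2 scale.

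Of the genes named for the lowest values or from the molting and developmental timing lists, nas-3 (-7.4), col-149 (-5.92), sym-1 (-6.46), fbn-1 (-5.34), acn-1 (-5.22), lon-1 (-4.59), lin-42 (-3.35), nhr-23 (-1.66), ugt-57 (-3.92), aagr-4 (-4.58) and pud-3 (-2.72) were more negative after food. The collagen genes col-12 (-1.77) and col-130 (-1.94) were also more negative, though higher in raga-1 in both conditions, whereas col-96 (1.47), phat-5 (1.36), cht-1 (0.97), tbb-6 (2.56) and twk-34 (2.42) were more positive.

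Of the genes named from the translation and ribosome lists, these were more negative, fib-1 (-1.89), wars-1 (-1.36), eef-1A.2 (-1.33), fars-1 (-1.16), tars-1 (-1.15), egl-45 (-1.09), eif-3.K (-1.01), ebp-2 (-1.0), mrps-28 (-0.92), mrpl-12 (-0.75), rps-2 (-0.43) and rla-1 (-0.33). From the folding, secretion and proteasome lists they were fkb-5 (-3.5), hsp-4 (-3.17), pdi-2 (-2.87), fkb-6 (-2.2), cct-8 (-1.5), cct-6 (-1.47), pas-5 (-1.35), spcs-2 (-1.35), rpn-9 (-1.33), rpn-11 (-1.2) and spcs-3 (-1.01). From the cell division, nucleotide, histone, germline, splicing and growth regulator lists they were cdc-25.2 (-2.45), his-24 (-1.92), cyb-3 (-1.77), hil-2 (-1.76), fzy-1 (-1.66), snr-2 (-1.51), mog-2 (-1.24), mes-4 (-1.07), tyms-1 (-0.97), rnr-2 (-0.96) and lin-35 (-0.62).

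Of the genes named from the metabolic, intestine marker and transporter lists, more negative were mthf-1 (-1.84), ech-9 (-1.55), fat-7 (-1.52), acdh-1 (-1.48), nhr-68 (-0.95), pdhb-1 (-0.59), gpdh-1 (-0.55), pho-1 (-1.81) and slc-36.1 (-0.82), and more positive were fat-5 (0.87), ech-7 (0.68), let-767 (0.18) and aco-1 (0.16). In the TORC1 list the genes ife-2 (-0.69), nprl-2 (-0.53), lmtr-5 (-0.37), flcn-1 (-0.28), gcn-2 (-0.28), sgk-1 (-0.23), ragc-1 (-0.21) and atf-4 (-0.16) were more negative and fnip-2 was more positive (1.22). The values of sgk-1, ragc-1 and atf-4 are about as large as the shift the TMM factors bring, so their direction rests on the scaling.

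Among autophagy genes lgg-2 (2.33), epg-9 (1.64) and allo-1 (1.29) were more positive after food. The lysosomal genes cpr-2 (2.12) and lipl-5 (1.39) were more positive too, although 24 genes of the lysosomal list were more positive and 30 more negative. The regulator genes daf-2 (1.23), mxl-3 (0.48) and mdl-1 (0.23) and the stress, immune and peptide genes cyp-37B1 (6.17), tts-1 (4.69), ftn-1 (2.64), clec-47 (1.99), ins-10 (1.95), nlp-51 (1.61), nlp-31 (1.13), ttr-15 (0.94) and flp-14 (0.91) were more positive. Of the tissue markers named here unc-25 (0.66), tni-4 (0.59) and tni-3 (0.54) were more positive, whereas body wall muscle markers, tni-3 among them, had 8 more positive and 14 more negative genes. The infection response gene dod-21 and the raga-1 neighbour samp-1 were more negative, with dod-21 (-9.73) and samp-1 (-0.53). The starved N2 libraries held 0 counts of dod-21, so its fitted value depends on the prior count and is no bound.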

How the results depend on the processing

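Between the alternatives, library totals in place of TMM factors were the setting that moved the counts of called genes by over 1.5 times. They gave 6614 higher and 2671 lower genes in fed raga-1 against fed N2, 2282 and 336 of them at least 2-fold, and 6178 higher and 2624 lower in fed raga-1 against fed rsks-1. Member counts of 16 lists moved with them, and 11 of the 122 genes named changed sign, namely rsks-1 (0.27), let-363 (0.25), daf-15 (0.18), lmtr-3 (0.073), nprl-3 (0.15), gcn-2 (4.9e-05), sesn-1 (0.17), mlst-8 (0.28), rict-1 (0.18), sinh-1 (0.085) and hsp-4 (0.23). Fitting only the 6 fed libraries turned mlst-8 (0.022) and rsks-1 (0.015) round. Leaving out each fed replicate gave 8352 to 8506 called genes, and ranges of -0.16 to 0.103 for mlst-8, -0.024 to 0.059 for sgk-1 and -0.0062 to 0.064 for flcn-1, none of which passed the main test. DESeq2 called 8599 genes. Deviations of same-numbered fed libraries correlated at -0.023, -0.071 and -0.053, within the range of unlike-numbered ones, -0.077 to 0.125. These values gave no sign of pairing by number, but cannot tell whether same-numbered libraries shared a culture or preparation. A fit with the replicate block called 8875 genes, 4047 higher and 4828 lower, and changed the call of none of the genes named. The causes were not tested. Promoter motifs were planned and not run. Genes near 0 in 1 genotype give only bounds or wide intervals at this depth.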

Other observations

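Gene families were also read by name alone, over every class with at least 20 tested genes, a grouping made after the values had been seen. All 25 eif translation initiation factor genes and 25 of 26 npp nuclear pore genes were lower in fed raga-1 than in fed N2, beside 34.4% of all genes. All 30 flp genes, for FMRFamide-like peptides, were higher, beside 28.9% of all genes. Receptor and channel classes differed in the share called higher. Of them, 28 of 48 lgc ligand-gated channel genes, 25 of 43 npr neuropeptide receptor genes and 11 of 20 frpr receptor genes were higher and none was lower, and 20 of 42 twk potassium channel genes were higher and 2 lower, as were 13 and 2 of 30 gcy guanylyl cyclase genes. At or below the share of all genes stood acr acetylcholine receptor genes with 6 of 21 higher, and the chemoreceptor classes with 8 of 40 srh, 8 of 29 str, 3 of 20 sre and 3 of 21 srx genes higher, and 5 of 20 irld genes. Of these classes only acr held a lower gene, 1 of 21. Their medians were above 0 as well, 0.35 for acr, 0.56 for srh, 0.8 for str, 0.67 for sre, 0.63 for srx and 0.485 for irld. For lgc and npr the medians were 0.486 and 0.51. Of 34 glb globin genes 21 were higher. Of 29 dnj genes, for DNAJ-domain co-chaperones, 26 were lower, and of 20 mdt Mediator subunit genes 16 were.

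Only 2 genes had 0 counts in all 6 raga-1 libraries, fed and starved, with a mean of at least 10 counts in fed N2, and 4 genes had 0 counts in all 6 N2 libraries with a mean of at least 10 in fed raga-1. Beside raga-1 itself, the noncoding RNA gene T05E12.10 on chromosome V had 0 counts in the fed raga-1 libraries, against 13, 13 and 8 counts in the fed N2 libraries, at least 18.9-fold lower. It also had 0 counts in the starved libraries of both genotypes. In the other direction C27C12.3 on chromosome X had 60, 49 and 34 counts in fed raga-1, against 0 in each fed N2 library, at least 28.6-fold higher, and the collagen gene col-108 on chromosome IV had 24, 28 and 25 counts in fed raga-1, against 0 in fed N2. F31F6.1 had 13, 10 and 16 counts and F31F6.3 had 9, 12 and 9 counts in fed raga-1, against 0 in fed N2, both on chromosome X. Their counts in starved raga-1 were 12, 14 and 19 for F31F6.1 and 10, 12 and 10 for F31F6.3, against 0 in starved N2, and no rsks-1 library held a count of either.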
